A study of Mus musculus with 9 samples.

Results

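Class I antigen presentation was described here through 10 genes: the heavy chains H2-K1 and H2-D1, the light chain B2m, the peptide transporter Tap1 and Tap2, tapasin (Tapbp), the immunoproteasome subunits Psmb8, Psmb9 and Psmb10, and the transactivator Nlrc5. They were chosen by name with earlier results of these data known, so shares over all clusters given below are a scale and no test. Of the 10 genes, 9 were found among the 30120 genes that have a transcript cluster of their own on the array. The cluster of Nlrc5 carries the symbols of other transcripts too, so Nlrc5 was not analysed here. Each of the 9 genes has 1 cluster.

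Quadriceps of 8-week-old mdx mice, which lack dystrophin, was measured on Clariom D arrays, 1 array per mouse. All mice carry both floxed alleles of the mineralocorticoid receptor (MR, gene Nr3c2) on a mixed C57BL6/C57BL10 background. In the 3 LysM-MRcko/mdx mice (2 male, 1 female) Cre is made from the lysozyme gene, which is active in macrophages, monocytes and neutrophils, and in the 3 MCK-MRcko/mdx mice (1 male, 2 female) from the muscle creatine kinase promoter, which is active in myofibers. The 3 Cre-/mdx mice (2 male, 1 female) have the floxed alleles and no Cre. The study asked how MR loss in each of these cell types alters the dystrophic muscle. All values are signals on the log2 scale, on which a difference of 1 is 2-fold.

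Almost every nucleated cell shows fragments of its own proteins on its surface, held in a groove of a class I molecule, where CD8 T cells inspect them. Proteasomes cut the proteins, and inflammation exchanges the standard catalytic subunits for the immunoproteasome ones. The transporter TAP carries the peptides into the endoplasmic reticulum, tapasin bridges TAP to a waiting heavy chain, and a heavy chain leaves for the surface only with beta-2 microglobulin and a peptide in place. Healthy muscle fibers carry little class I, and raised class I on fibers is a known feature of inflamed muscle. Interferons, NF-kappa B and NLRC5 switch these genes on through short elements just before the start of transcription.

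The upstream sequences of the members were searched for such elements. RefSeq promoters (GRCm38.p6) were matched for 8 of the 10 members, and 6 of these lie on chromosome 17, the chromosome of the major histocompatibility complex. Shown are the 250 bases before the start of H2-K1, H2-D1 and Tapbp, which differed most between the mice, and of B2m, whose protein pairs with both heavy chains. Capitals mark matches, on either strand, to the kappa B consensus of NF-kappa B, the core AANNGAAA of interferon regulatory factors, the TGACG found in cyclic AMP response elements, and the CCAAT box (ATTGG when read on the other strand). The other strand of the AANNGAAA core reads as TTTCACTT in both heavy chain genes.
H2-K1, chr17:34000334-34000583, minus strand: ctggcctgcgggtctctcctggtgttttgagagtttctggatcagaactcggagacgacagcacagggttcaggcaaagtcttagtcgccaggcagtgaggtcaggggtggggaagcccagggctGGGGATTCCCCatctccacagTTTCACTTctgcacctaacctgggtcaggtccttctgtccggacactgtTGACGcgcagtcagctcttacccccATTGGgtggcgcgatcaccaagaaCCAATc
H2-D1, chr17:35262844-35263093, plus strand: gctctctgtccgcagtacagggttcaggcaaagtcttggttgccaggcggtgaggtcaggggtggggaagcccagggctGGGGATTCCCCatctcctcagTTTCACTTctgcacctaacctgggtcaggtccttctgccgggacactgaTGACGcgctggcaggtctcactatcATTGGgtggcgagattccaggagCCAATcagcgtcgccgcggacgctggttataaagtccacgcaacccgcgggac
B2m, chr2:122147437-122147686, plus strand: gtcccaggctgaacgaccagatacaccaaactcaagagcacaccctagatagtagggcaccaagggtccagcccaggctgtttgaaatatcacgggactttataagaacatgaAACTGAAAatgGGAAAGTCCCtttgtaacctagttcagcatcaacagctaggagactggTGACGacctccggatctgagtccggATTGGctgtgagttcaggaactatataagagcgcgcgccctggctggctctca
Tapbp, chr17:33919228-33919477, plus strand: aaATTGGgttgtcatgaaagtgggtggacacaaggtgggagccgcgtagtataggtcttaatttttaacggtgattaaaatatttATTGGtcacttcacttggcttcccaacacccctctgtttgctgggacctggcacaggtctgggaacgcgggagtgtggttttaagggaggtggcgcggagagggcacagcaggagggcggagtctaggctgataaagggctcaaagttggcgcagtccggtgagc

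The 2 heavy chain promoters carried the 4 elements in the same order, with the kappa B match farthest from the start, and were identical at 177 of 203 aligned bases (87.2%). RefSeq lists 2 starts for H2-K1, and the one farther downstream is shown. B2m held each of the 4 motifs as well. All 4 together were present in 0.0822% of the 32851 mouse promoters of this length, while the kappa B consensus alone was present in 7.25%, AANNGAAA in 21.3%, TGACG in 17.8% and CCAAT in 33.8%. Tapbp matched CCAAT only. Tap1 and Psmb9 face away from each other from a shared stretch, with 225 bases in common between their windows, and this stretch matched TGACG and CCAAT. Psmb8 and Psmb10 matched none of these 4. The element TTCNNNGAA (GAS) of interferon gamma signalling was searched too and is not marked in capitals. Among the members it matched Psmb8 only, as TTCCCAGAA, and it was present in 7.02% of all promoters. A match describes the letters only.

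The array data were alike after normalization. Array medians of the normalized values lay between 4.70 and 4.78, and pairs of arrays correlated at r = 0.982 to 0.994 over 65672 clusters. The 8 myofiber markers averaged between 17.72 and 18.11 in every array. Of these, Acta1, Myh4 and Tnnt3 read 19.93, the top of the scale, in every array, so this mean could move little. Nr3c2 read 6.89, 6.89 and 6.96 in LysM-MRcko/mdx, 6.74, 6.81 and 6.87 in MCK-MRcko/mdx, and 6.89, 7.12 and 7.06 in Cre-/mdx. The LysM-MRcko/mdx readings thus overlapped those of Cre-/mdx. The MCK-MRcko/mdx readings lay below all Cre-/mdx readings, by -0.22 (unadjusted p under 0.05 in limma). In that comparison 6.2% of all clusters did not overlap in either direction. A whole-gene signal from whole muscle says little about a deletion in one cell type. Signals stop at 19.93. In 56.0% of clusters 3 or more arrays share 1 value to 2 decimals, which the fit treats as agreement between mice.

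H2-K1 and H2-D1 rose in LysM-MRcko/mdx muscle, tapasin lay above every Cre-/mdx mouse without reaching 2-fold, and no member was called in MCK-MRcko/mdx muscle. A gene was called when it differed at least 2-fold with an unadjusted p under 0.05 in limma. Against Cre-/mdx, 2 of the 9 members were called higher in LysM-MRcko/mdx, where 0.234% of all clusters were called higher. None was called in MCK-MRcko/mdx, where 0.227% of all clusters were called higher and 0.0944% lower. Set directly against MCK-MRcko/mdx, 3 members were called higher in LysM-MRcko/mdx, where the share over all clusters was 0.204%. After Benjamini-Hochberg adjustment over all clusters in limma no cluster passed 0.05 in any comparison, with smallest adjusted p-values of 0.696, 0.357 and 0.105 in these 3 comparisons.

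**Figure D1:**
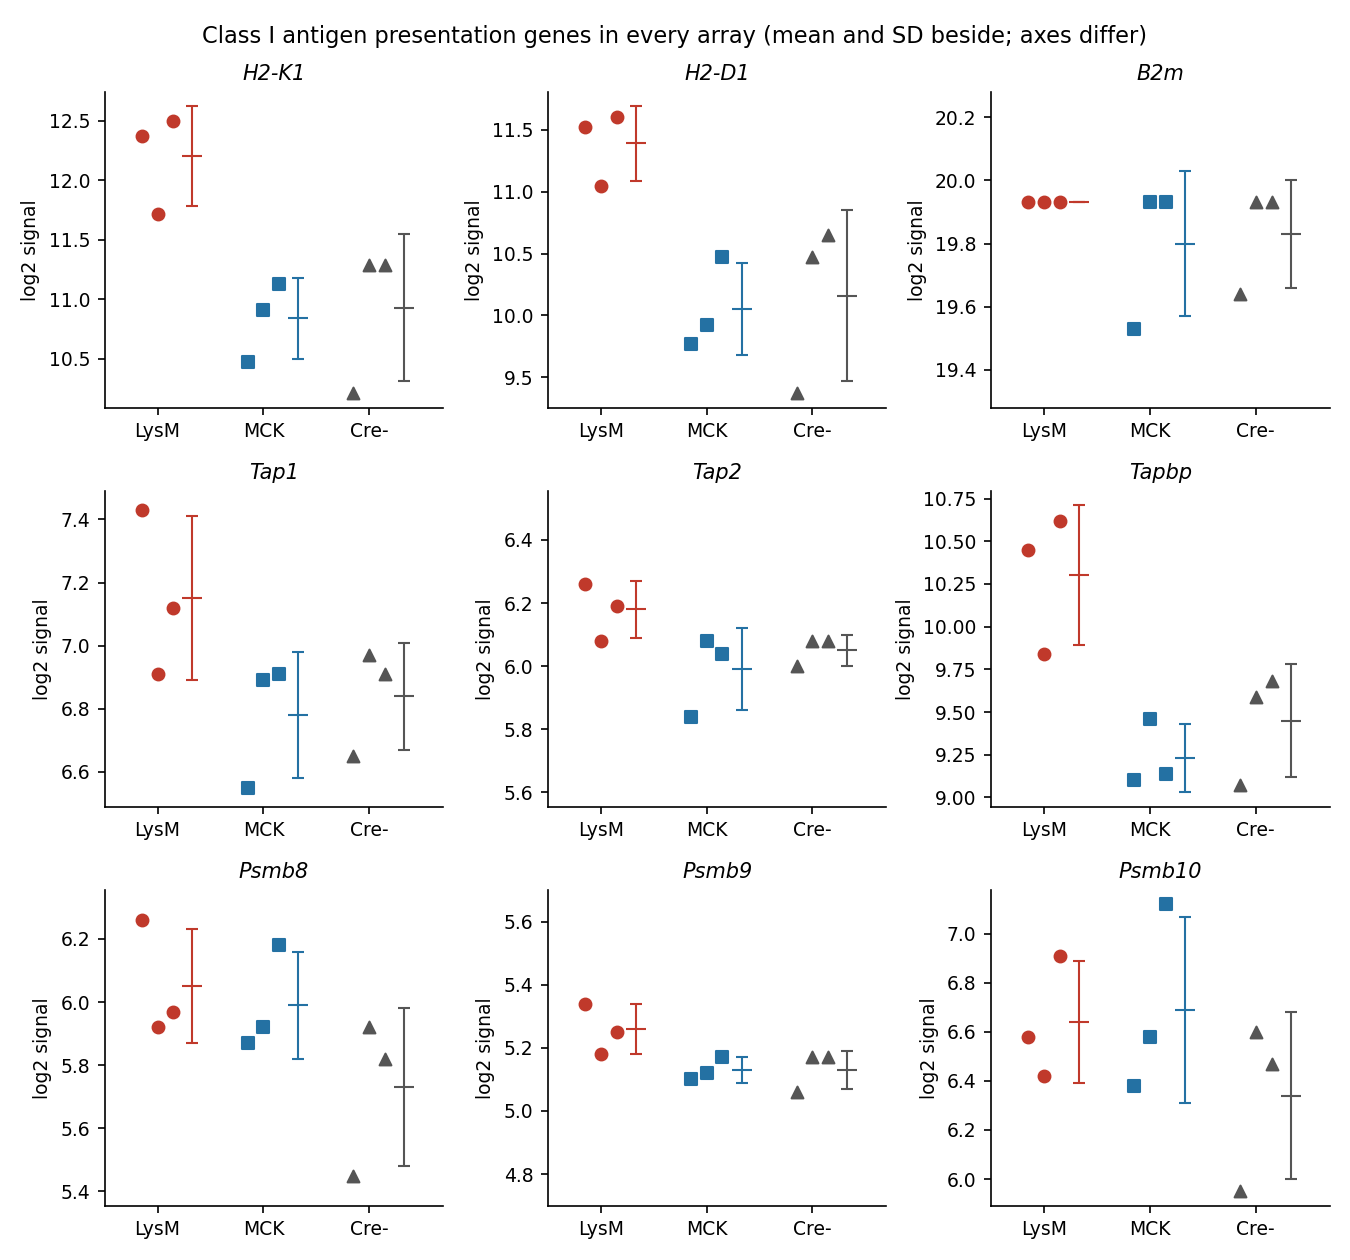
Log2 signal (vertical axis, a separate scale per gene) of the 9 measured genes in each array of LysM-MRcko/mdx (red circles), MCK-MRcko/mdx (blue squares) and Cre-/mdx (grey triangles), with the group mean and SD beside the points (n = 3). For H2-K1, H2-D1, Tapbp and Psmb9 all 3 LysM-MRcko/mdx points lie above all points of the other groups, although for Psmb9 the whole range is 0.28.

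H2-K1, a classical heavy chain that shows peptides to CD8 T cells, read 12.37, 11.72 and 12.50 in the LysM-MRcko/mdx mice. It read 10.47, 10.91 and 11.13 in MCK-MRcko/mdx and 10.21, 11.29 and 11.29 in Cre-/mdx. Every LysM-MRcko/mdx mouse was above every other mouse, while the MCK-MRcko/mdx mice fell among the Cre-/mdx mice. The mean was 12.20 ± 0.42 in LysM-MRcko/mdx and 10.93 ± 0.62 in Cre-/mdx (SD, n = 3 each), a log2 difference of 1.27 (SE 0.36, 2.41-fold, adjusted p = 0.78 in limma). Against MCK-MRcko/mdx, at 10.84 ± 0.34, the difference was 1.36 (SE 0.36, adjusted p = 0.58 in limma). MCK-MRcko/mdx and Cre-/mdx differed by -0.09 (95% interval -0.94 to 0.76).

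H2-D1, the other classical heavy chain, followed the same pattern. It read 11.52, 11.05 and 11.60 in LysM-MRcko/mdx, 9.77, 9.92 and 10.47 in MCK-MRcko/mdx, and 9.37, 10.47 and 10.65 in Cre-/mdx. Again every LysM-MRcko/mdx mouse stood above all others. The log2 difference of LysM-MRcko/mdx was 1.23 over Cre-/mdx (SE 0.37, 2.34-fold, adjusted p = 0.78 in limma) and 1.34 over MCK-MRcko/mdx (SE 0.37, adjusted p = 0.60 in limma). MCK-MRcko/mdx differed from Cre-/mdx by -0.11, with an interval of -0.98 to 0.76. H2-K1 and H2-D1 are alike in sequence, and whether probes of one also bind the other was not tested.

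One control mouse weighs on the heavy chains. Cre-/mdx replicate 1 held the lowest reading of all 9 mice for 6 of the 9 members, H2-K1 and H2-D1 included. Without it, H2-K1 differed by 0.91 and H2-D1 by 0.83 between LysM-MRcko/mdx and Cre-/mdx, short of 2-fold, so that 0 members were called. The 3 LysM-MRcko/mdx mice lay above the remaining Cre-/mdx mice for both genes, which leaving out the lowest control could not change. The comparison with MCK-MRcko/mdx does not use this mouse's level. With 3 mice against 3, the exact permutation test cannot go below p = 0.10, which is the value it gave for H2-K1, H2-D1, Tapbp and Psmb9 in LysM-MRcko/mdx against either group (two-sided).

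The light chain B2m was at the top of the scale. It read 19.93 in all 3 LysM-MRcko/mdx mice, 19.53, 19.93 and 19.93 in MCK-MRcko/mdx, and 19.64, 19.93 and 19.93 in Cre-/mdx. Only replicate 1 of MCK-MRcko/mdx and replicate 1 of Cre-/mdx were below the limit. A rise in B2m could not be read on these arrays, and no fold change is given.

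Tapbp encodes tapasin, which holds an empty heavy chain next to the peptide transporter. It read 10.45, 9.84 and 10.62 in LysM-MRcko/mdx, 9.10, 9.46 and 9.14 in MCK-MRcko/mdx, and 9.07, 9.59 and 9.68 in Cre-/mdx. Every LysM-MRcko/mdx mouse was above every other mouse, with LysM-MRcko/mdx replicate 2 closest to the Cre-/mdx mice. Over Cre-/mdx the difference was 0.86 (SE 0.25, 1.81-fold, adjusted p = 0.78 in limma), which missed the 2-fold limit, and over MCK-MRcko/mdx it was 1.07 (SE 0.25, adjusted p = 0.53 in limma). The difference from Cre-/mdx reached 1.09 and was called when LysM-MRcko/mdx replicate 2 was left out. That from MCK-MRcko/mdx was 0.91 and not called without LysM-MRcko/mdx replicate 3, and just short of 2-fold without LysM-MRcko/mdx replicate 1.

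Neither transporter gene was called. Tap1, a chain of the ATP-driven peptide pump, read 7.43, 6.91 and 7.12 in LysM-MRcko/mdx, 6.55, 6.89 and 6.91 in MCK-MRcko/mdx, and 6.65, 6.97 and 6.91 in Cre-/mdx. The groups overlapped, since LysM-MRcko/mdx replicate 2 was no higher than mice of both other groups. The difference over Cre-/mdx was 0.31 (interval -0.08 to 0.70), and over MCK-MRcko/mdx 0.37 (interval -0.02 to 0.76). Its upper bound lies below 2-fold in both comparisons.

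Tap2, the partner of Tap1 in the pump, read 6.26, 6.08 and 6.19 in LysM-MRcko/mdx, 5.84, 6.08 and 6.04 in MCK-MRcko/mdx, and 6.0, 6.08 and 6.08 in Cre-/mdx. Arrays of every group shared the reading 6.08. Tap2 differed by 0.12 from Cre-/mdx (interval -0.06 to 0.30) and by 0.19 from MCK-MRcko/mdx (interval 0.01 to 0.37, adjusted p = 0.69 in limma). MCK-MRcko/mdx lay -0.06 from Cre-/mdx for Tap1 and -0.07 for Tap2, both inside the spread.

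None of the 3 immunoproteasome subunits was called in any comparison. Psmb8 (LMP7), the chymotrypsin-like subunit, read 6.26, 5.92 and 5.97 in LysM-MRcko/mdx, 5.87, 5.92 and 6.18 in MCK-MRcko/mdx, and 5.45, 5.92 and 5.82 in Cre-/mdx. The reading 5.92 occurs in all 3 groups, and Cre-/mdx replicate 1 is the low point. Psmb8 differed from Cre-/mdx by 0.32 in LysM-MRcko/mdx (interval -0.05 to 0.69) and by 0.26 in MCK-MRcko/mdx (interval -0.11 to 0.63).

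Psmb9 (LMP2), which sits beside Tap1 in the genome, read 5.34, 5.18 and 5.25 in LysM-MRcko/mdx, 5.10, 5.12 and 5.17 in MCK-MRcko/mdx, and 5.06, 5.17 and 5.17 in Cre-/mdx. The LysM-MRcko/mdx mice did not overlap the others, but the steps were small, at 0.12 over Cre-/mdx (adjusted p = 0.78 in limma) and 0.13 over MCK-MRcko/mdx (adjusted p = 0.70 in limma). Its mean signal is at the 58.4th percentile of all clusters, close to the array medians.

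Psmb10 (MECL-1), the third inducible subunit, read 6.58, 6.42 and 6.91 in LysM-MRcko/mdx, 6.38, 6.58 and 7.12 in MCK-MRcko/mdx, and 5.95, 6.60 and 6.47 in Cre-/mdx. It was the one member whose highest mouse was not a LysM-MRcko/mdx mouse, apart from B2m at its limit. The difference from Cre-/mdx was 0.30 in LysM-MRcko/mdx (interval -0.30 to 0.89) and 0.35 in MCK-MRcko/mdx (interval -0.24 to 0.95).

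**Figure D2:**
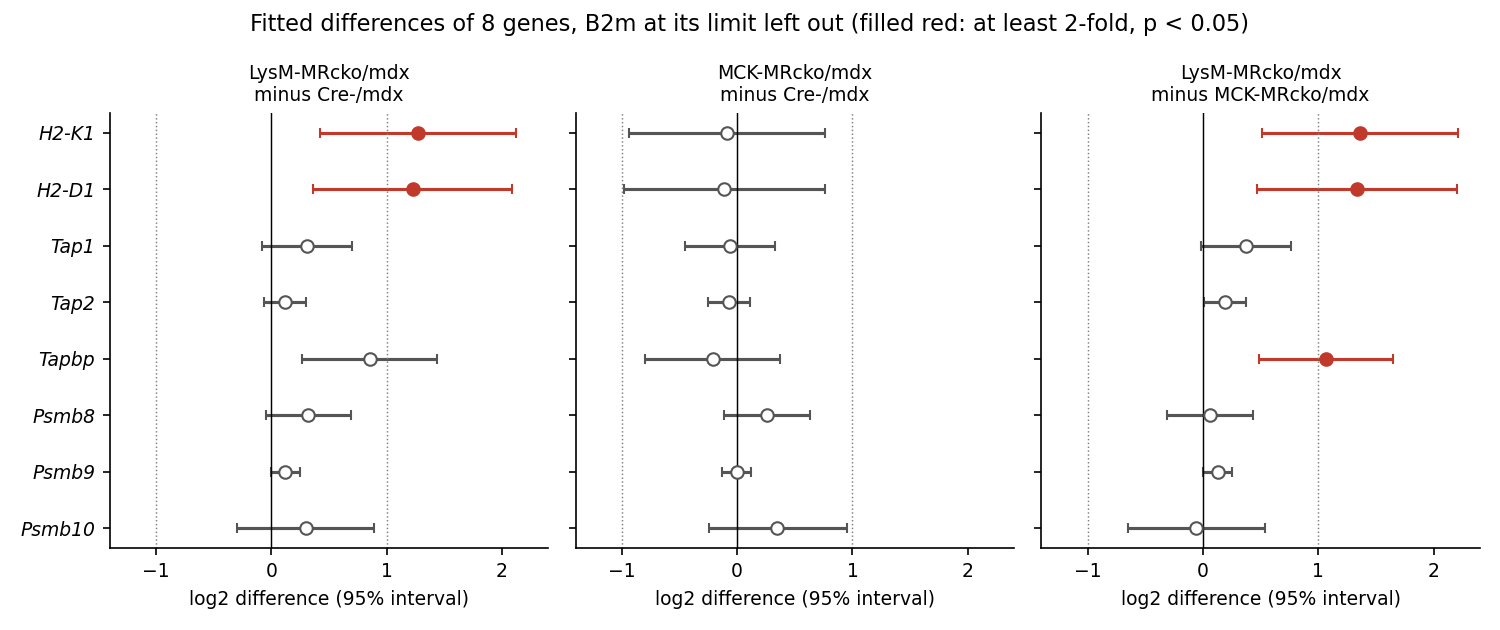
Log2 differences of 8 genes in 3 comparisons, with B2m, at the top of the scale, left out (points: limma estimates, bars: 95% intervals, dotted lines: 2-fold, filled red: called). H2-K1 and H2-D1 are called in both comparisons of LysM-MRcko/mdx, Tapbp at 1.07 in the one against MCK-MRcko/mdx, and the MCK-MRcko/mdx estimates over Cre-/mdx lie between -0.21 and 0.35.

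Leaving B2m aside, LysM-MRcko/mdx was above Cre-/mdx for 8 of 8 members by the mean, with a median log2 difference of 0.31 beside a median of 0.00 over all clusters. An unadjusted p under 0.05 in the higher direction was reached by 3 members, against 2.85% of all clusters, and the groups did not overlap for 4, against 3.29%. Against MCK-MRcko/mdx the median was 0.28 (0.19 with B2m counted in), with 7 of 8 above 0, 5 members at p under 0.05 (2.99% of all clusters) and 4 without overlap (3.72%). MCK-MRcko/mdx against Cre-/mdx gave a median of -0.06, 0 members at p under 0.05 in limma (5.54% of all clusters in either direction) and 0 without overlap (6.2%). The first and the last of these comparisons share the Cre-/mdx mice.

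The members varied together from mouse to mouse. With B2m left out, the 28 pairs correlated over the 9 arrays at Pearson r = 0.33 to 0.99 (median 0.82). H2-K1 and H2-D1 were the closest pair (r = 0.99, Spearman rho = 0.99), and Tapbp and Psmb10 the loosest. After each group's mean was taken away all 28 stayed above 0, at 0.51 to 0.96 (median 0.74). Cre-/mdx replicate 1 was lowest for 6 of the 9 members and MCK-MRcko/mdx replicate 1 for 3. Correlations without these mice were not computed. These arrays share tissue makeup and normalization, and the values are descriptions with no test.

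The genes whose profile was most like the members' mean were Oasl2 (r = 0.974), an interferon-induced antiviral gene, H2-K2 (r = 0.972) and H2-Q4 (r = 0.966), 2 further class I loci, Shc1 (r = 0.964), an adaptor of growth factor receptors, and Irf3 (r = 0.961), a transcription factor of the interferon response, over 9 arrays. H2-K2 lay at 6.55, 6.32 and 6.89 in LysM-MRcko/mdx, 5.67, 5.90 and 6.16 in MCK-MRcko/mdx, and 5.59, 6.16 and 6.16 in Cre-/mdx. The LysM-MRcko/mdx mice did not overlap the rest, but H2-K2 was picked for this likeness, so this is no separate result. Whether probes of H2-K2 or H2-Q4 also bind H2-K1 or H2-D1 was not tested. Irf3 moved within 6.54 to 6.74 over all mice.

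Class I-like and non-classical heavy chains form a wider family, of which 15 of 20 listed genes were measured. Against Cre-/mdx, 0 were called higher in LysM-MRcko/mdx (0.234% of all clusters) and 1 lower (93 of all 65672 clusters). By the mean 13 of 15 lay above 0, with a median of 0.17. H2-Q4 differed by 0.63 (interval -0.06 to 1.31) and H2-M3, which shows formylated peptides of bacteria and mitochondria, by 0.45 (interval 0.15 to 0.75). The gene that fell was Mr1, which shows vitamin B metabolites to MAIT cells and is unrelated to the receptor MR. Mr1 read 8.96, 9.47 and 9.34 in LysM-MRcko/mdx, 9.81, 9.98 and 10.58 in MCK-MRcko/mdx, and 10.93, 10.50 and 9.65 in Cre-/mdx. All LysM-MRcko/mdx mice were below all other mice, with a difference of -1.10 from Cre-/mdx (SE 0.35, adjusted p = 0.78 in limma).

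Among the genes that load and trim peptides, the chaperones Calr and Pdia3 were called in MCK-MRcko/mdx. Of 9 measured genes, 0 were called in LysM-MRcko/mdx and 2 higher in MCK-MRcko/mdx against Cre-/mdx. Over all clusters 0.234% were called higher in LysM-MRcko/mdx and 0.227% in MCK-MRcko/mdx. The medians of the 9 genes were 0.19 in LysM-MRcko/mdx and 0.26 in MCK-MRcko/mdx. Calr (calreticulin), a chaperone of the loading complex, read 12.85, 12.31 and 12.67 in LysM-MRcko/mdx, 12.81, 12.98 and 13.33 in MCK-MRcko/mdx, and 11.91, 11.88 and 12.07 in Cre-/mdx. Both knockouts were above every Cre-/mdx mouse, by 1.09 in MCK-MRcko/mdx (SE 0.17, adjusted p = 0.78 in limma) and by 0.66 in LysM-MRcko/mdx (interval 0.24 to 1.07).

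Pdia3 (ERp57), the oxidoreductase bound to tapasin, read 14.38, 13.87 and 14.12 in LysM-MRcko/mdx, 14.14, 14.16 and 14.85 in MCK-MRcko/mdx, and 13.22, 13.10 and 13.59 in Cre-/mdx. It too was higher in every mouse of both knockouts, by 1.08 in MCK-MRcko/mdx (SE 0.24, adjusted p = 0.84 in limma) and by 0.82 in LysM-MRcko/mdx (interval 0.26 to 1.38). Both proteins also fold many glycoproteins other than class I. Where H2-K1, H2-D1 and Tapbp were higher in LysM-MRcko/mdx than in MCK-MRcko/mdx, Calr differed by -0.43 (interval -0.84 to -0.02) and Pdia3 by -0.26 (interval -0.82 to 0.30) in this comparison.

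Of 17 other proteasome genes 0 were called in any of the 3 comparisons, and their median was -0.02 in LysM-MRcko/mdx and 0.06 in MCK-MRcko/mdx, each against Cre-/mdx. Among the standard subunits that the inducible ones replace, Psmb6 differed by 0.13 (interval -0.12 to 0.38) and Psmb7 by -0.26 (interval -0.55 to 0.02) in LysM-MRcko/mdx. Psmb5 and the activator subunit Psme2 were not analysed here. The activator subunit Psme1 differed by 0.24 (interval -0.38 to 0.86).

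The factors that drive class I genes gave no call either. In the list of interferon gamma signalling and class I promoter factors, 18 of 21 were measured and 0 were called in any comparison, with a median of -0.02 in LysM-MRcko/mdx against Cre-/mdx. Ifng, the cytokine itself, lay between 3.50 and 4.08 in all 9 mice, below the array medians. Irf1, an interferon-induced activator of class I promoters, differed by 0.00 (interval -0.34 to 0.34) in LysM-MRcko/mdx against Cre-/mdx, and so did Rfx5, a subunit of the factor that binds the X box (interval -0.15 to 0.15). Irf8, a factor of the same family found in myeloid cells, was the 1 gene of the list at p under 0.05 in this comparison. It read 7.12, 6.69 and 6.94 in LysM-MRcko/mdx, 6.40, 6.73 and 6.60 in MCK-MRcko/mdx, and 6.30, 6.49 and 6.37 in Cre-/mdx. The LysM-MRcko/mdx mice were above all Cre-/mdx mice, by 0.53 (interval 0.23 to 0.83, adjusted p = 0.78 in limma).

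Some genes induced by interferon were called. Of 24 measured, 1 was called higher in LysM-MRcko/mdx against Cre-/mdx, where 0.234% of all clusters were called higher. In MCK-MRcko/mdx against Cre-/mdx 1 was called lower (0.0944% of all clusters). In LysM-MRcko/mdx against MCK-MRcko/mdx 2 were called higher (0.204% of all clusters). The medians were 0.10, -0.17 and 0.23 in this order. By the mean, 15 of the 24 lay above 0 in the first of these comparisons, 4 in the second and 22 in the third. Irf7, a master regulator of the interferon response, read 8.85, 7.45 and 8.31 in LysM-MRcko/mdx, 6.83, 6.92 and 7.33 in MCK-MRcko/mdx, and 6.38, 7.34 and 7.49 in Cre-/mdx. It rose by 1.13 over Cre-/mdx (adjusted p = 0.78 in limma), with overlap at LysM-MRcko/mdx replicate 2, and by 1.18 over MCK-MRcko/mdx (adjusted p = 0.67 in limma).

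Bst2 (tetherin), which holds budding viruses at the membrane, read 13.71, 12.26 and 12.60 in LysM-MRcko/mdx, 10.99, 7.57 and 9.23 in MCK-MRcko/mdx, and 10.68, 11.41 and 13.02 in Cre-/mdx. The MCK-MRcko/mdx mice spread over more than 3 log2 units and overlapped Cre-/mdx. The differences were 3.59 for LysM-MRcko/mdx over MCK-MRcko/mdx (SE 0.97, adjusted p = 0.59 in limma) and -2.44 in MCK-MRcko/mdx relative to Cre-/mdx (adjusted p = 0.84 in limma).

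**Figure D3:**
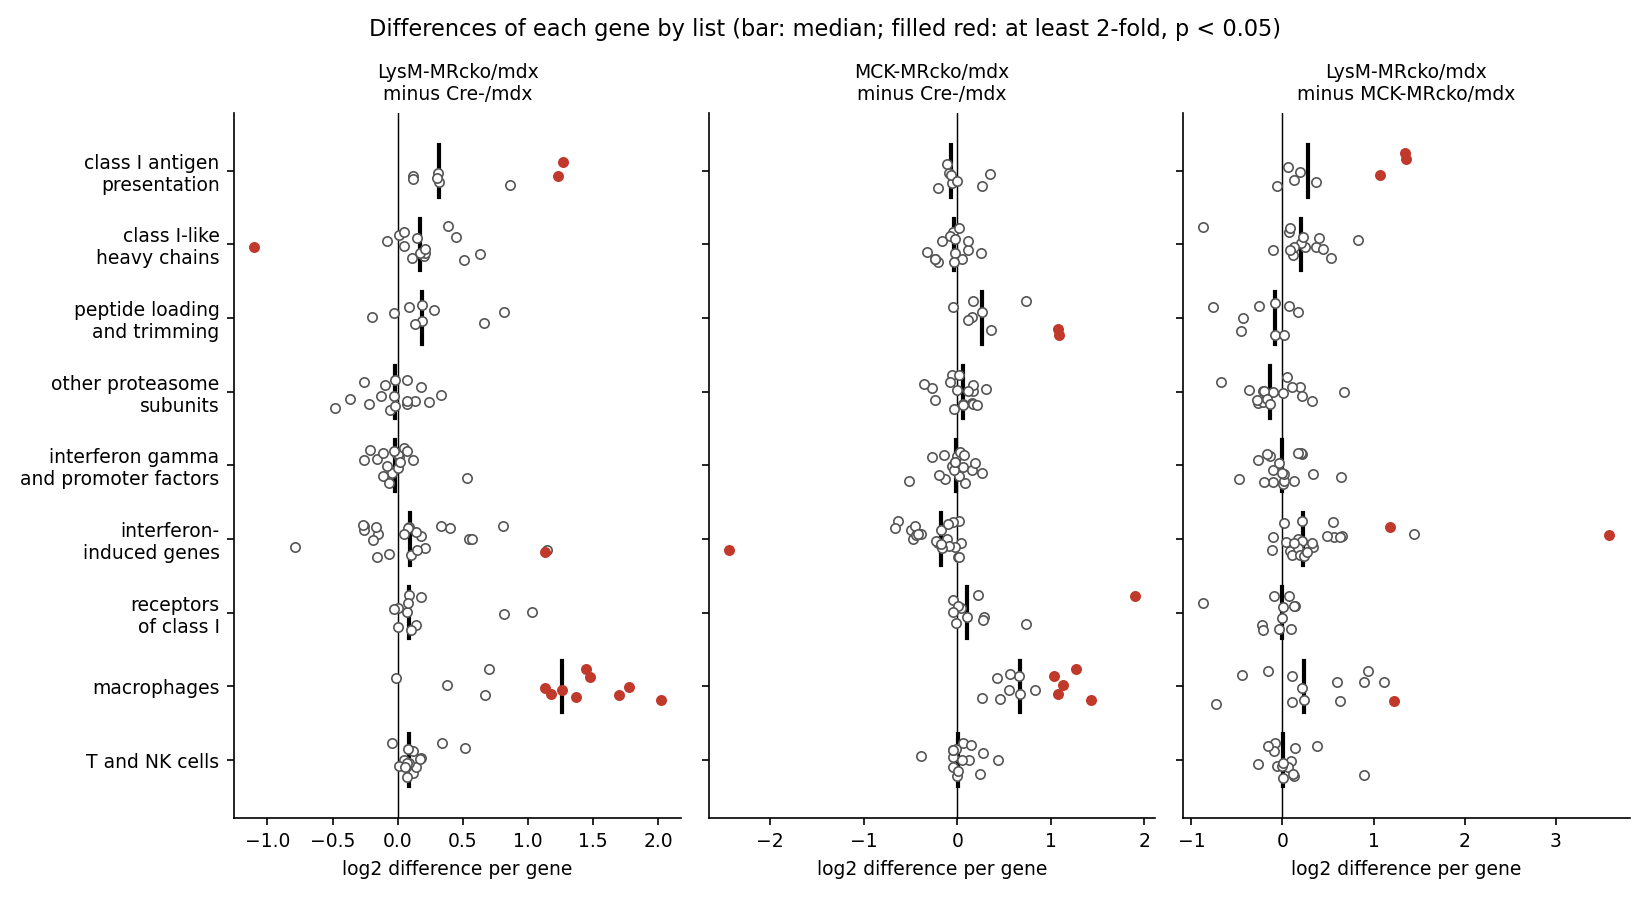
Log2 difference of every measured gene (points, filled red where called) in 8 class I members (B2m left out) and in 8 other lists, for the 3 comparisons, with a bar at each list's median and separate horizontal scales. Against Cre-/mdx, the filled points of LysM-MRcko/mdx are 2 class I members, 1 class I-like gene, 1 interferon-induced gene and 9 macrophage markers, and those of MCK-MRcko/mdx are 2 loading genes, 1 interferon-induced gene, Lilrb4a of the receptor list and 5 macrophage markers.

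On the receiving side, no T or NK cell marker was called. Cd8a, a chain of the co-receptor that grips class I, read 3.92, 4.01 and 4.02 in LysM-MRcko/mdx, 3.68, 3.92 and 3.92 in MCK-MRcko/mdx, and 3.92, 3.92 and 3.70 in Cre-/mdx. All 9 values lie below the array medians. Over the T and NK cell markers the mean signal ran from percentile 20.5 of all clusters for Cd8a to 79.2 for Cd4. Klrd1 (CD94), a chain of NK cell receptors, was at 73.8 and Cd3e, a chain of the T cell receptor complex, at 42.6. Of 15 measured T and NK cell markers 0 were called, and their median difference from Cre-/mdx was 0.09 in LysM-MRcko/mdx and 0.01 in MCK-MRcko/mdx. Over all clusters 0.234% and 0.227% were called higher in these comparisons. Cd3e read 4.58, 4.60 and 4.91 in LysM-MRcko/mdx, above all other mice (highest 4.43). It was the 1 marker of 15 above Cre-/mdx without overlap (3.29% of all clusters). Of 11 measured genes listed as receptors of class I, 1 was called, in MCK-MRcko/mdx against Cre-/mdx, where 0.227% of all clusters were called higher. It was Lilrb4a, an inhibitory receptor of myeloid cells that was listed for its family and is not established as a receptor of class I. Lilrb4a read 15.18, 14.32 and 14.35 in LysM-MRcko/mdx, 16.09, 15.07 and 15.31 in MCK-MRcko/mdx, and 12.99, 14.52 and 13.26 in Cre-/mdx. It was higher by 1.90 in MCK-MRcko/mdx (adjusted p = 0.84 in limma). At p under 0.05 in limma, 3 of the 11 were higher in MCK-MRcko/mdx (1983 of all 65672 clusters) and 1 in LysM-MRcko/mdx (2.85% of all clusters). Pirb, of the same list, read 9.64, 9.28 and 9.50 in LysM-MRcko/mdx, 9.50, 9.52 and 9.14 in MCK-MRcko/mdx, and 8.47, 8.92 and 8.56 in Cre-/mdx. Both knockouts were above every Cre-/mdx mouse for Pirb, which was not called.

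Macrophage markers were called higher in both knockouts. Against Cre-/mdx, 9 of the 13 markers were called higher in LysM-MRcko/mdx (0.234% of all clusters) and 5 in MCK-MRcko/mdx (0.227% of all clusters). The medians were 1.26 in LysM-MRcko/mdx and 0.67 in MCK-MRcko/mdx. Cd68, a lysosomal protein of macrophages, differed by 2.02 in LysM-MRcko/mdx and 1.08 in MCK-MRcko/mdx, and Tyrobp, the myeloid signalling adaptor DAP12, by 1.48 in LysM-MRcko/mdx and 1.27 in MCK-MRcko/mdx. C1qb, a complement subunit made by macrophages, rose by 1.78 and Fcer1g, a signalling chain of Fc receptors, by 1.70 in LysM-MRcko/mdx. In LysM-MRcko/mdx against MCK-MRcko/mdx, 10 of 13 lay above 0 with a median of 0.24, and 1 was called higher (0.204% of all clusters). At p under 0.05 in limma 3 were higher (2.99% of all clusters) and 1 lower. All LysM-MRcko/mdx mice lay above all MCK-MRcko/mdx mice for 4 markers (3.72% of all clusters), Fcer1g and C1qb among them, and below for 1. Mrc1, the mannose receptor, read 14.59 in all 3 LysM-MRcko/mdx mice, 15.82, 15.15 and 14.99 in MCK-MRcko/mdx, and 14.04, 13.91 and 13.71 in Cre-/mdx. Mrc1 was thus lower in every LysM-MRcko/mdx mouse than in any MCK-MRcko/mdx mouse, by -0.73 (interval -1.22 to -0.24), and Cd163, a scavenger receptor, differed by -0.44 (interval -1.71 to 0.84) between them and by -0.01 between LysM-MRcko/mdx and Cre-/mdx. The mean over the 13 markers, set to 0 at the Cre-/mdx mean, ran from 0.91 to 1.49 in LysM-MRcko/mdx, 0.66 to 0.93 in MCK-MRcko/mdx and -0.40 to 0.25 in Cre-/mdx. The class I mean, over 9 genes with B2m at its limit included, ran from 0.29 to 0.63 in LysM-MRcko/mdx, -0.21 to 0.18 in MCK-MRcko/mdx and -0.34 to 0.17 in Cre-/mdx.

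By group, the macrophage mean was 1.16 in LysM-MRcko/mdx and 0.80 in MCK-MRcko/mdx, and the class I mean 0.51 and 0.00. The macrophage ranges of the knockouts met only at replicate 2 of each, by a small margin. LysM-MRcko/mdx replicate 2 had a macrophage mean of 0.91 and a class I mean of 0.29, against 0.93 and 0.04 in MCK-MRcko/mdx replicate 2. Cre-/mdx replicate 1 was lowest for both, at -0.40 and -0.34. Over 9 arrays the class I mean correlated with the macrophage mean at r = 0.75 (rho = 0.73) and with the interferon-induced mean at r = 0.76 (rho = 0.68). Higher values were found for the class I-like genes (r = 0.84, rho = 0.83) and the T and NK cell markers (r = 0.80, rho = 0.70), and a lower one for dendritic cell markers (r = 0.64, rho = 0.72). After removing group means r was 0.84 for macrophage markers, 0.82 for interferon-induced genes, 0.77 for class I-like genes, 0.62 for T and NK cell markers and 0.05 for dendritic cell markers, while the single gene Nr3c2 gave 0.88. These are descriptions over mice that share a tissue, and the part of these cells in the class I differences was not tested. In whole muscle, more cells of a type and more RNA per cell cannot be told apart.

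**Figure D4:**
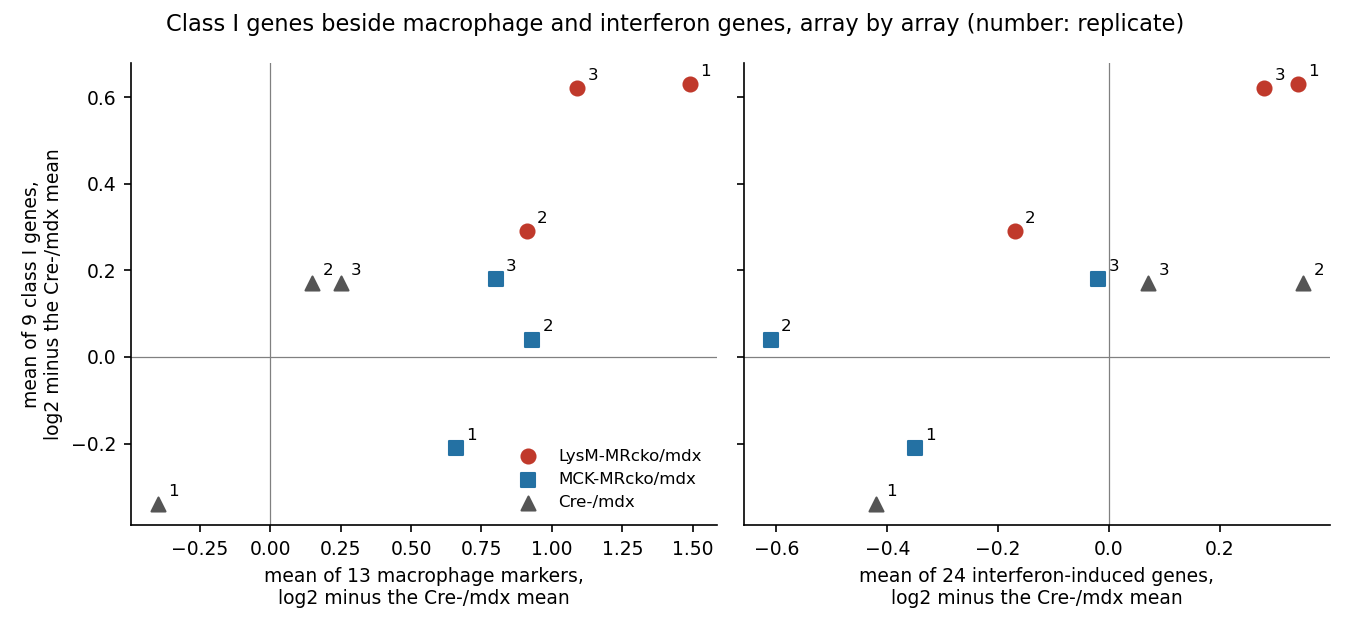
Mean log2 signal of the 9 class I genes (vertical) against that of 13 macrophage markers (left) or 24 interferon-induced genes (right), both relative to the Cre-/mdx mean, with 1 point per array and the replicate number beside it. MCK-MRcko/mdx lies between 0.66 and 0.93 for macrophage markers and between -0.21 and 0.18 for class I. LysM-MRcko/mdx lies between 0.91 and 1.49 for macrophage markers and between 0.29 and 0.63 for class I.

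Markers of other cell types gave 1 call. No dendritic cell, B cell, neutrophil, fibroblast, myofiber, satellite cell or adipocyte marker was called in any comparison. Of 8 endothelial markers, 1 was called lower in MCK-MRcko/mdx against Cre-/mdx (0.0944% of all clusters), Cdh5 (VE-cadherin) at -1.13 (adjusted p = 0.84 in limma). In this comparison 6 of the 8 were lower at p under 0.05 in limma, against 1657 of all 65672 clusters. For 4 the MCK-MRcko/mdx mice lay below all Cre-/mdx mice, while 6.2% of all clusters did not overlap in either direction. The list median against Cre-/mdx was -0.33 in LysM-MRcko/mdx and -0.66 in MCK-MRcko/mdx, and all 8 were higher by the mean in LysM-MRcko/mdx than in MCK-MRcko/mdx (median 0.40). The endothelial mean, set to 0 at the Cre-/mdx mean, ran from -0.51 to -0.11 in LysM-MRcko/mdx, -1.02 to -0.19 in MCK-MRcko/mdx and -0.13 to 0.20 in Cre-/mdx. Dendritic cell markers, whose cells are rich in class I, had a mean of 0.11 to 0.25 above the Cre-/mdx mean in LysM-MRcko/mdx and 0.03 to 0.09 in MCK-MRcko/mdx. The part of these cells in the class I values was not tested.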

How the data were processed

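RNA of quadriceps from 9 mice was hybridized to Clariom D arrays. The authors normalized the arrays with SST-RMA, summarised per gene in Expression Console, and the deposited values are log2 signals per transcript cluster; tool versions and the genome build are not given in the sources used here. All 9 value columns and all 65672 clusters entered the fit, without further normalization or filter. Genes were named from clusters with 1 symbol (30450 clusters, against 2151 with several and 33071 with none), taking the highest mean where a gene has several.

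Groups were compared in R 4.3.3 with limma 3.58.1 (lmFit with 1 mean per group, contrasts.fit, eBayes). P-values were adjusted by the Benjamini-Hochberg method over the whole table. Exact permutation tests used all splits of 3 against 3. The members and gene lists were chosen with earlier results of these data known. Named genes are all members, up to 4 called genes per list, a fixed set of counterparts and regulators, and the 5 genes with the most similar profile. H2-M3, Irf8, Klrd1, Cd3e, Cd4, Pirb, Acta1, Myh4, Tnnt3, Mrc1, Cd163 and the class I locus H2-Q4 were named after their values were seen. H2-Q4 was also named by its profile. Promoters were searched with Python 3.11.15 and aligned with Biopython 1.88. The code was tested on simulated data. Alternatives were a fit on 6 arrays, an unmoderated test, a replicate block, sex, quantile normalization, a signal filter, other eBayes options and leaving out each array. With arrays, 3 per group limit the precision. Intervals are 95% intervals from limma.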

Additional observations from a re-analysis of the deposited data

Results flagged for a closer look

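The difference between the knockouts was itself called for 3 members. In LysM-MRcko/mdx against MCK-MRcko/mdx, H2-K1 was higher by 1.36, H2-D1 by 1.34 and Tapbp by 1.07 on the log2 scale, in 3 of 3 LysM-MRcko/mdx mice above all MCK-MRcko/mdx mice (limma, adjusted p = 0.58, 0.60 and 0.53). Over the 16 alternatives, all fitted in limma but for 1 unmoderated test, the adjusted p ran from 0.36 to 0.84 for H2-K1, from 0.37 to 0.84 for H2-D1 and from 0.33 to 0.77 for Tapbp. Groups of 3 mice are too small for a check of single outlying values.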

How the results depend on the processing

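Of 384 recomputed member differences (24 differences under 16 alternatives, B2m left out), 360 kept their direction and their side of the limit. Another 4 fell short of it, 1 newly passed it and 19 changed sign. None of the 19 was called. Many of the 360 could not have moved. The fit on the compared groups alone, the unmoderated test, the replicate block, the signal filter and the eBayes options left the difference unchanged. So did leaving out an array of the group outside the comparison. Those settings can change only the p-value, so the 360 are no measure of stability. The count of called members stayed at 2, 0 and 3 (LysM-MRcko/mdx over Cre-/mdx, then MCK-MRcko/mdx over Cre-/mdx, then LysM-MRcko/mdx over MCK-MRcko/mdx) under all 7 alternatives that keep every array. Leaving out 1 array gave 0 to 3, 0 to 0 and 2 to 3 called members, with the 0 for LysM-MRcko/mdx against Cre-/mdx arising without Cre-/mdx replicate 1, where fewer mice also enter. The median member difference ran from 0.18 to 0.42, from -0.13 to 0.06 and from 0.12 to 0.24 when 1 array was left out. In an alternative added after the data were seen, the medians without B2m were 0.31, -0.06 and 0.28.

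In MCK-MRcko/mdx relative to Cre-/mdx, leaving out 1 array moved H2-K1 between -0.45 and 0.09, H2-D1 between -0.51 and 0.13, Tap1 between -0.16 and 0.06, Tap2 between -0.11 and 0.01 and Psmb9 between -0.04 and 0.02. For LysM-MRcko/mdx against MCK-MRcko/mdx it moved Psmb8 between -0.05 and 0.16 and Psmb10 between -0.21 and 0.16, and with sex as a covariate Psmb10 was 0.05. Quantile normalization gave 0.00 for this Psmb10 difference and 0.00 for Psmb9 in MCK-MRcko/mdx against Cre-/mdx, both of which changed sign before rounding. The cause was not tested. Replicate numbers do not pair the mice (correlations of same-numbered arrays from -0.234 to 0.162, with 3 of 9 above 0.1); with the replicate block, 2, 0 and 3 members were called, and H2-K1 differed by 1.27 from Cre-/mdx. No member has a second cluster, so the planned exchange of clusters could not be run. B2m is bounded by the top of the scale, and 3 arrays per group limit all other values.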
